A study of Mus musculus with 27 samples.

Results

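Vasopressin (AVP) neurons were compared with cholecystokinin (CCK) neurons of the suprachiasmatic nucleus (SCN) by small-RNA sequencing, with 2 libraries of each type, 4 of the 27 in the study. The comparison took the libraries titled AVP and CCK and the miRNAs whose deposited value, a signal scaled to 10000000 per library, was 100 or more in at least 2 of these 4 libraries. That value is 10 CPM, where CPM, the unit used below, is reads scaled to 1000000 per library. Of 395 miRNAs listed in any of the 4 libraries, 269 met the rule: 167 reached the minimum in 4 libraries, 43 in 3 and 59 in exactly 2, while 80 reached it in only 1 and were left out. All 4 libraries were made from total RNA of C57BL/6 mice, with no other genotype, treatment, age or clock time in the labels. The wider study also sequenced brain tissues, an SCN time course and VIP neurons, which are named for vasoactive intestinal peptide. How the neurons were collected, the number of animals and whether a library pools several are not given in the sources used here, so p-values measure the spread between libraries, which may be technical.

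The SCN is the central circadian clock of the mammalian brain. AVP neurons lie mainly in its dorsomedial shell, and CCK neurons form a smaller population with distinct activity. A miRNA is a short RNA that guides an Argonaute protein to messenger RNAs, chiefly by pairing of its seed, bases 2 to 8 from the 5′ end, and lowers the protein made from them. miRNAs with the same seed form a family with largely overlapping targets, and several can be cut from 1 long transcript, as in the imprinted Dlk1-Dio3 region that is active in neurons.

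The miRNAs on which the results turn are shown first, with the seed in capitals. Mature sequences came from RefSeq (GRCm38.p6), which matched 236 of the 269 tested miRNAs (87.7%). The let-7 family shares 1 seed, and its members differ in the lower-case part:
let-7a-5p: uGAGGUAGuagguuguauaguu
let-7b-5p: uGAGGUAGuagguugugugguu
let-7c-5p: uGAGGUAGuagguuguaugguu
let-7d-5p: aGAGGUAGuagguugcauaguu
let-7e-5p: uGAGGUAGgagguuguauaguu
let-7f-5p: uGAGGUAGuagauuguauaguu
miR-98-5p: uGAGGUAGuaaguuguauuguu
let-7g-5p: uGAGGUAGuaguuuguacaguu
let-7i-5p: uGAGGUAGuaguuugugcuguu
Pairs of miRNAs that share a seed but moved in opposite directions between AVP and CCK neurons were these:
miR-148b-3p: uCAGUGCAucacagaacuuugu
miR-148a-3p: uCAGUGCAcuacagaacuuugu
miR-125a-5p: uCCCUGAGacccuuuaaccuguga
miR-125b-5p: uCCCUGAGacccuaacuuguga
miR-99b-5p: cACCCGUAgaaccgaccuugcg
miR-100-5p: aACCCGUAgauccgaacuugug
miR-30a-5p: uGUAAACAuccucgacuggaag
miR-384-5p: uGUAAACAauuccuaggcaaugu
Other miRNAs called between the neuron types, each described below, were these:
miR-204-5p: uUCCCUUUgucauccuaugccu
miR-298-5p: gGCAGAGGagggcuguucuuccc
miR-1264-3p: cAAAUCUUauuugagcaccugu
miR-1298-3p: cAUCUGGGcaacugauugaacu
miR-329-3p: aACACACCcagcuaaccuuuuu
miR-409-3p: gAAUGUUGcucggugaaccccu

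The deposited values came in steps of 1 read, from which 537185 and 908477 miRNA reads were recovered for AVP replicates 1 and 2, and 469808 and 487360 for CCK replicates 1 and 2. AVP libraries listed fewer miRNAs (215 and 265) than CCK libraries (311 and 312), although AVP replicate 2 was the deepest. Of the 269 tested miRNAs, 66 were at 0 in AVP replicate 1, 32 in AVP replicate 2, 13 in CCK replicate 1 and 24 in CCK replicate 2. A miRNA with 0 reads in both libraries of a type could still have been present at up to 2.08 CPM in AVP or 3.13 CPM in CCK neurons, the level of 3 reads over the group, for counting error only. Replicates correlated across the tested miRNAs at r = 0.862 (AVP) and 0.878 (CCK) on the log2 scale, where miRNAs are not independent replicates.

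No miRNA on the marker list marks AVP or CCK neurons, and messenger RNA was not measured, so the labels could not be checked against Avp or Cck. The 5 neuronal markers summed to 5546 and 6057 CPM in AVP and 11717 and 13362 CPM in CCK libraries. The 5 microglia and leukocyte markers summed to 0 to 2.0 CPM. The 4 red-cell markers summed to 2164 and 2107 CPM in AVP and 980 and 1015 CPM in CCK libraries, all of it miR-486-5p, with miR-451a and miR-144-3p at 0 in all 4 libraries. Markers of 3 other kinds of cell were higher in CCK libraries. The 3 oligodendrocyte markers summed to 134 and 45.1 CPM (AVP) against 631 and 742 CPM (CCK), with miR-219a-5p listed in none of them. The 4 choroid plexus and ciliated-cell markers summed to 83.8 and 290 CPM (AVP) against 1500 and 1914 CPM (CCK), with miR-449a-5p listed in none of them. Vessel markers, 4 in number, summed to 70.8 and 3.3 CPM (AVP) against 138 and 176 CPM (CCK). The single astrocyte marker lay between 41.0 and 420 CPM with overlapping groups. The part of other cells in the results below was not tested, except where stated.

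In AVP neurons 17 miRNAs were higher and 50 lower than in CCK neurons, 67 of 269 (24.9%), of which 6.32% rose and 18.6% fell (limma-trend on log2(value + 20), Benjamini-Hochberg adjusted p under 0.05). The minimum of 10 CPM in 2 libraries bears on this split: 25 of the falls were under 10 CPM in both AVP libraries, so they were tested only because both CCK libraries were high, and no p is given for them below. Among the 180 miRNAs above 0 in all 4 libraries, a set chosen after seeing the data, 20 were higher and 30 lower. The 17 that rose had means of 528 to 250922 CPM in AVP neurons and rose 1.37-fold to 4.90-fold, 11 of them more than 2-fold. They held 66.9% and 64.2% of the miRNA reads of the AVP libraries and 42.9% and 42.5% of those of the CCK libraries. The 50 that fell held 18.4% and 18.1% of AVP reads and 40.8% and 41.2% of CCK reads. Among the falls 23 had both AVP libraries at 0 and another 2 had AVP replicate 1 at 0, while no miRNA that rose had a CCK library at 0. The 25 falls with reads in all 4 libraries were 1.42-fold to 18.4-fold. The AVP and CCK libraries did not overlap for any of the 67, as for 172 of all 269 (63.9%).

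**Figure D1:**
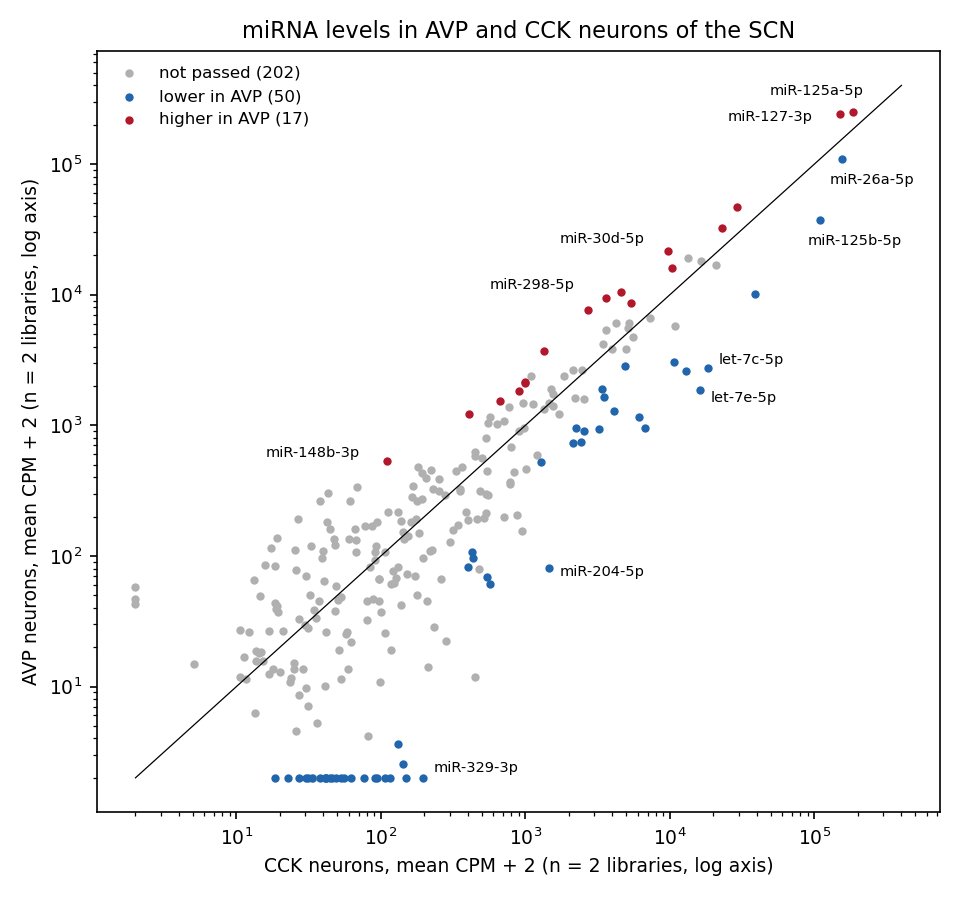
Mean level of each of the 269 tested miRNAs in CCK neurons (x axis) and AVP neurons (y axis), in CPM + 2 on log axes, with 2 libraries per type; the line marks equal levels. The 17 miRNAs higher in AVP neurons (red) lie mostly at high levels and close to the line, and the 50 lower ones (blue) include a row of 23 at 0 in both AVP libraries.

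The number of calls depended on the fit and on single libraries. edgeR on the recovered reads called 17 miRNAs (5 higher, 12 lower), all among the 67. Those higher were miR-30a-5p, miR-30d-5p, miR-92b-3p, miR-127-3p and miR-298-5p. Those lower were let-7a-5p, let-7d-5p, let-7e-5p, let-7f-5p, miR-100-5p, miR-124-3p, miR-125b-5p, miR-148a-3p, miR-204-5p, miR-335-5p, miR-770-5p and miR-329-3p. Of these, miR-329-3p was tested only through the CCK libraries. Without AVP replicate 1 the calls were 27, without AVP replicate 2 they were 57, and without CCK replicate 1 or 2 they were 25 each, with 0 of those 25 higher in AVP. Of the 67, those still called were 23 without AVP replicate 1, 39 without AVP replicate 2 and 24 each without CCK replicate 1 or 2. Quantile normalization changed the split to 19 higher and 22 lower. Only let-7e-5p kept its call in every one of the 15 alternative fits, the 4 that left out a library included; each of the 67 kept its direction in every fit that tested it, except miR-125a-5p under quantile normalization (log2 fold change -0.09). In VIP neurons the mean of the 17 miRNAs that rose lay below both other types for 9, between them for 6 and above both for 2, and for the 50 that fell it lay below both for 14, between for 18 and above both for 18.

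The let-7 family, which represses growth and cell-cycle genes and accumulates as neurons mature, was lower in AVP neurons. Of 9 tested members 7 fell and none rose, with a median log2 fold change of -2.36 against -0.23 over all 269 miRNAs (where 18.6% fell). The family summed to 19134.7 and 30738.2 CPM in AVP libraries and to 108889.9 and 101236.0 CPM in CCK libraries. The sum was 4.21-fold lower in AVP neurons (log2 fold change -2.11 ± 0.21 SE, n = 2 and 2, adjusted p = 0.00028 over 22 seed families, limma-trend). It passed without each of the 4 libraries in turn.

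let-7e-5p was at 1859.9 and 1875.1 CPM in AVP libraries and at 17190.9 and 15168.1 CPM in CCK libraries. Its AVP replicates were almost equal and lay far below both CCK replicates, an 8.66-fold difference (log2 fold change -3.11 ± 0.12 SE, limma adjusted p = 0.0049). let-7e-5p differs from let-7a-5p by U9G, the first base after the seed, with positions counted from 1 at the 5′ end of let-7a-5p. let-7f-5p, the most abundant member in every library, was at 8376.4 and 11728.7 CPM in AVP and 39843.0 and 37776.4 CPM in CCK libraries, 3.86-fold lower (-1.97 ± 0.19 SE, limma adjusted p = 0.023). let-7f-5p differs from let-7a-5p by G12A.

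The other members that fell did so by 3.21-fold to 9.52-fold. let-7a-5p was at 1942.0 and 3269.4 CPM in AVP and 13197.9 and 12649.6 CPM in CCK libraries, 4.96-fold lower. let-7c-5p (A19G against let-7a-5p) was at 1442.0 and 4008.4 CPM in AVP and 19149.1 and 17401.0 CPM in CCK libraries, 6.71-fold lower. The AVP replicates of let-7c-5p stood apart from each other but below both CCK replicates. let-7b-5p (A17G and A19G) was 7.11-fold lower, let-7d-5p 3.21-fold and miR-98-5p 9.52-fold (limma adjusted p = 0.042, 0.023 and 0.042). Under edgeR, let-7b-5p, let-7c-5p and miR-98-5p did not pass (edgeR adjusted p = 0.068, 0.06 and 0.06). miR-98-5p was the least abundant of the 9, at 89.5 and 28.6 CPM in AVP and 541.2 and 583.3 CPM in CCK libraries. let-7a-5p, let-7b-5p, let-7c-5p, let-7d-5p, let-7f-5p and miR-98-5p lost their calls without either CCK library, in fits where 1 library stood for the CCK group.

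Both members that did not pass carry G12U and U18C relative to let-7a-5p. let-7g-5p, in an intron of Wdr82 (chr9:106178846-106178867, GRCm38, plus strand), was at 2070.7 and 5538.4 CPM in AVP and 5120.2 and 4812.9 CPM in CCK libraries, so its groups overlapped (log2 fold change -0.55 ± 0.53 SE, limma adjusted p = 0.50). Without AVP replicate 1 its direction turned (0.16), and without AVP replicate 2 it passed (-1.26). let-7i-5p was at 1749.9 and 1450.5 CPM in AVP and 2416.2 and 2635.5 CPM in CCK libraries, with groups that did not overlap (-0.66 ± 0.17 SE, limma adjusted p = 0.066). Whether these 2 changed less than the rest of the family was not tested.

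**Figure D2:**
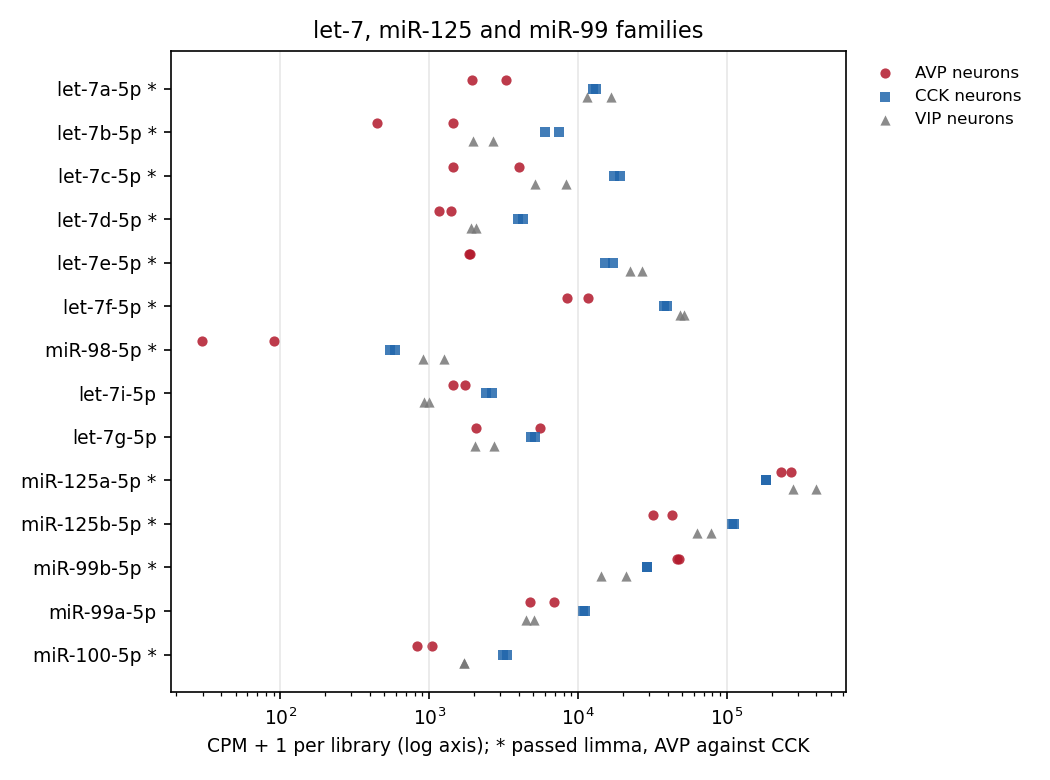
Level of each member of the let-7, miR-125 and miR-99 families in every library, in CPM + 1 on a log axis, with AVP (red circles), CCK (blue squares) and, for reference, VIP libraries (grey triangles); a star marks miRNAs that passed limma between AVP and CCK neurons. The 7 starred let-7 members lie lower in both AVP libraries than in both CCK libraries, while miR-125a-5p and miR-99b-5p lie higher.

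let-7e lies in 1 cluster with miR-99b and miR-125a, and these neighbours moved the opposite way. All 3 are within the Spaca6 gene on its strand on chromosome 17 (GRCm38): miR-99b-5p at chr17:17830194-17830215 and let-7e-5p at chr17:17830366-17830387 in introns, and miR-125a-5p at chr17:17830817-17830840 in an annotated exon (GENCODE M21). miR-125a-5p, a mammalian relative of the worm developmental timer lin-4, was the most abundant miRNA in AVP replicate 1, at 271348.7 CPM, and was at 230495.5 CPM in AVP replicate 2. It was at 183332.3 and 183742.7 CPM in CCK libraries, so both AVP libraries lay above both CCK libraries, by 1.37-fold on average (log2 fold change 0.45 ± 0.10 SE, limma adjusted p = 0.049). That call was lost under edgeR (adjusted p = 0.060) and the direction turned under quantile normalization, as given above.

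miR-99b-5p, of a family known to target mTOR signalling, was at 46089.1 and 47358.3 CPM in AVP and 29044.3 and 28966.0 CPM in CCK libraries. It was 1.61-fold higher in AVP neurons (0.69 ± 0.07 SE, limma adjusted p = 0.023; edgeR adjusted p = 0.056). The ratio of let-7e-5p to miR-125a-5p, which does not depend on the scaling, was 0.00685 and 0.00814 in AVP libraries and 0.0938 and 0.0826 in CCK libraries. The ratio of let-7e-5p to miR-99b-5p was 0.0404 and 0.0396 against 0.592 and 0.524. Both ratios were thus lower in each AVP library than in each CCK library.

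The paralogues of these neighbours went down instead. miR-125b-5p was at 42596.8 and 32139.5 CPM in AVP and 107705.4 and 112421.4 CPM in CCK libraries, 2.95-fold lower (log2 fold change -1.57 ± 0.16 SE, limma adjusted p = 0.023). Within a library, the ratio of miR-125a-5p to miR-125b-5p was 6.37 and 7.17 in AVP libraries and 1.7 and 1.63 in CCK libraries. miR-125a-5p and miR-125b-5p share their seed, and the summed level of their family differed by a log2 fold change of -0.03 ± 0.09 SE (limma adjusted p = 0.84), with overlapping groups. That sum passed in opposite directions without AVP replicate 1 (-0.16, adjusted p = 0.0015) and without AVP replicate 2 (0.10, adjusted p = 0.026). miR-351-5p, the third tested member, was at 0 and 40.8 CPM in AVP and 304.6 and 258.8 CPM in CCK libraries and did not pass (limma adjusted p = 0.14).

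miR-100-5p (chr9:41531437-41531458, plus strand, in an intron of the noncoding 3110039I08Rik) was at 820.8 and 1044.5 CPM in AVP and 3149.2 and 3333.9 CPM in CCK libraries, 3.48-fold lower (-1.80 ± 0.19 SE, limma adjusted p = 0.023). miR-99a-5p, in an intron of Mir99ahg (chr16:77598940-77598961, plus strand), was at 4729.2 and 6873.1 CPM against 10749.6 and 11082.3 CPM and fell short of the threshold (-0.94 ± 0.22 SE, limma adjusted p = 0.053). miR-99a-5p and miR-100-5p differ by U16A, counted from the 5′ end of miR-99a-5p. The ratio of miR-99b-5p to miR-100-5p was 56.2 and 45.3 in AVP and 9.22 and 8.69 in CCK libraries. Across the list of lin-4 and miR-99 relatives, 12 tested, 2 rose and 2 fell, beside 6.32% and 18.6% of all miRNAs.

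Opposite calls within a seed family were found in 4 of 22 families with at least 2 tested members whose sequence was matched. Besides miR-125 and miR-99, these were the miR-148 and miR-30 families. miR-148b-3p, from an intron of Copz1 (chr15:103285185-103285206, plus strand), was at 555.9 and 499.6 CPM in AVP and 104.4 and 110.9 CPM in CCK libraries. It was 4.90-fold higher in AVP neurons, the largest rise of the 17 (log2 fold change 2.27 ± 0.35 SE, limma adjusted p = 0.023; edgeR adjusted p = 0.056). miR-148a-3p (chr6:51269829-51269850, minus strand, intergenic), known from secretory and liver cells, was at 1574.5 and 743.4 CPM in AVP and 6053.4 and 6117.3 CPM in CCK libraries, 5.25-fold lower (-2.49 ± 0.41 SE, limma adjusted p = 0.027).

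The miR-148 pair differs only by C9U and U10C, counted from the 5′ end of miR-148a-3p. The ratio of miR-148b-3p to miR-148a-3p was 0.353 and 0.672 in AVP libraries and 0.0172 and 0.0181 in CCK libraries. Their summed level fell 3.67-fold (-1.93 ± 0.30 SE, adjusted p = 0.0023 over families, limma-trend), a call that was lost without either CCK library (adjusted p = 0.076 and 0.095). The other arm of the same hairpin, miR-148a-5p, was at 0 in both AVP libraries and at 29.8 and 26.7 CPM in CCK libraries, at least 13.6-fold lower.

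In the miR-30 family, whose members act in autophagy and cell differentiation, 2 of 7 listed relatives rose and none fell, beside 6.32% and 18.6% of all miRNAs. Of those that did not pass, miR-30b-5p (log2 fold change -1.06) and miR-30c-5p (-0.17) leaned lower. miR-30e-5p (0.53), miR-30a-3p (1.07) and miR-30e-3p (0.19) leaned higher, and these 3p arms have another seed. miR-30a-5p (chr1:23272274-23272295, plus strand, intergenic) was at 9900.6 and 10999.6 CPM in AVP and 4815.5 and 4412.3 CPM in CCK libraries, 2.26-fold higher (log2 fold change 1.18 ± 0.12 SE, limma adjusted p = 0.023). miR-30d-5p was at 23263.7 and 19993.8 CPM against 9441.3 and 10010.0 CPM, 2.22-fold higher (1.15 ± 0.11 SE, limma adjusted p = 0.023). miR-30e-5p, which differs from miR-30a-5p by C13U, was at 5675.0 and 6387.7 CPM against 3532.7 and 4903.3 CPM and did not pass (limma adjusted p = 0.17). miR-384-5p (chrX:105344332-105344354, minus strand), a brain miRNA with the same seed, went down: it was at 514.9 and 527.2 CPM in AVP and 1304.0 and 1271.5 CPM in CCK libraries, 2.47-fold lower (-1.30 ± 0.18 SE, limma adjusted p = 0.023). The summed level of miR-30a-5p, miR-30c-5p, miR-30e-5p and miR-384-5p did not pass (0.44 ± 0.16 SE, limma adjusted p = 0.071).

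**Figure D3:**
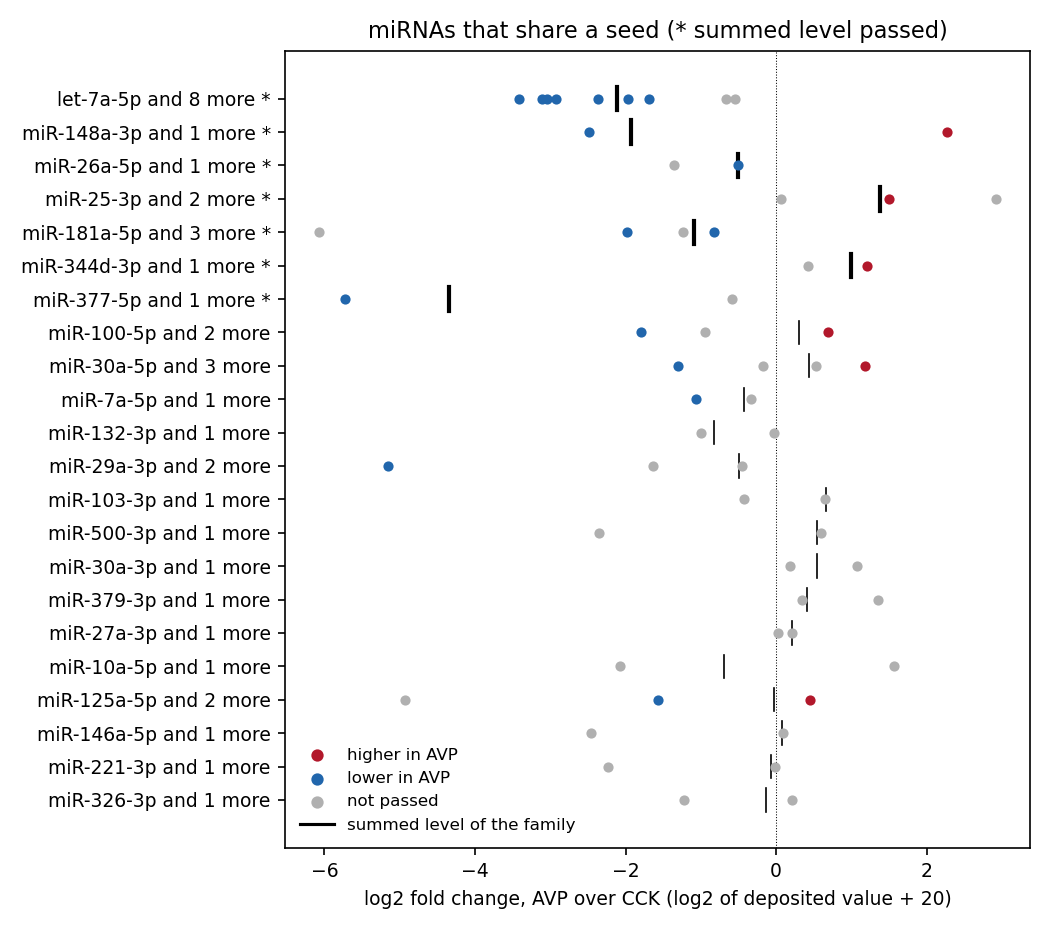
Log2 fold change (AVP over CCK, on log2 of the deposited value + 20) of the tested miRNAs with a matched sequence in the 22 families that share a seed. Each row is a family named by its first member, points are miRNAs, and the black bar is the summed level, with a star where it passed. miR-30d-5p and miR-30b-5p had no matched sequence and are not shown. In 4 rows, miR-148, miR-100 with miR-99, miR-30 and miR-125, red and blue points stand on opposite sides of 0.

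Summed levels passed for 7 of 22 families (31.8%). Besides let-7 and miR-148, the sum fell for miR-26 (1.42-fold), miR-181 (2.12-fold) and the pair of miR-672-5p with miR-377-5p (14.3-fold). Of that pair, only miR-672-5p passed by itself, and it was tested only through the CCK libraries. The sum of the pair did not pass with a pseudocount of 1 (limma adjusted p = 0.11) or with median-ratio scaling (limma adjusted p = 0.069). Summed levels rose for the miR-25 and miR-92 family (2.62-fold) and for the pair of miR-410-3p with miR-344d-3p (1.99-fold). Without AVP replicate 1 or 2 there were 11 and 13 such families, and without CCK replicate 1 or 2 only let-7 was left.

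miR-26a-5p, a growth-restraining miRNA, was among the 3 most abundant in all 4 libraries, at 109849.1 and 110334.8 CPM in AVP and 154430.8 and 157272.5 CPM in CCK libraries. The replicates differed little, and the 1.42-fold difference passed (log2 fold change -0.50 ± 0.05 SE, limma adjusted p = 0.023; edgeR adjusted p = 0.061). miR-92b-3p (chr3:89227126-89227147, minus strand, intergenic), known from neural progenitors, was at 8770.0 and 6580.7 CPM in AVP and 3002.2 and 2403.3 CPM in CCK libraries, 2.84-fold higher (1.50 ± 0.22 SE, limma adjusted p = 0.023). In the miR-181 family, miR-181a-5p fell 1.76-fold and miR-181d-5p 4.01-fold (limma adjusted p = 0.036 and 0.035). miR-181c-5p, beside miR-181d-5p in the same intron of Nanos3, was at 0 and 19.8 CPM in AVP and 517.7 and 377.9 CPM in CCK libraries and did not pass (-6.07 ± 1.44 SE, limma adjusted p = 0.058).

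Some neuronal miRNAs were lower in AVP neurons, but the median of the neuronal list was not lower than that of all miRNAs. Of 16 tested members of the neuronal list 5 fell and none rose, beside 18.6% and 6.32% of all miRNAs, with a median log2 fold change of -0.13 against -0.23 over all miRNAs. Of these 5, miR-137-3p and miR-218-5p were tested only through the CCK libraries. miR-124-3p, which keeps non-neuronal genes low in neurons, was at 3678.9 and 2378.1 CPM in AVP and 9982.5 and 11435.6 CPM in CCK libraries, 3.54-fold lower (log2 fold change -1.85 ± 0.26 SE, limma adjusted p = 0.023). miR-128-3p, a regulator of neuronal excitability, was at 98.8 and 35.2 CPM against 534.8 and 552.5 CPM, 8.11-fold lower (-3.16 ± 0.66 SE, limma adjusted p = 0.042; edgeR adjusted p = 0.060). The AVP replicates of miR-128-3p differed among themselves, and both lay below the CCK libraries.

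The other 3 that fell were at lower levels in CCK neurons. miR-135a-5p was at 95.1 and 65.0 CPM in AVP and 413.3 and 386.1 CPM in CCK libraries, 4.99-fold lower (limma adjusted p = 0.036). miR-137-3p was at 0 in both AVP libraries and at 44.7 and 43.1 CPM in CCK libraries, at least 21.2-fold lower. miR-218-5p, known from motor neurons, had 1 read in the AVP libraries and 136 in the CCK libraries, a ratio of 205 (95% exact counting interval 36.3 to 8172), and its call was lost without any 1 of the 4 libraries.

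Other neuronal miRNAs leaned the other way without passing. miR-9-5p was at 233.1 and 453.3 CPM in AVP and 115.0 and 213.6 CPM in CCK libraries (limma adjusted p = 0.28). miR-129-5p was at 1535.3 and 3190.0 CPM against 1084.5 and 1090.7 CPM (limma adjusted p = 0.18). Among activity-regulated miRNAs 0 of 10 passed in limma (0 at an unadjusted p under 0.05), 0 in edgeR and 2 in DESeq2. Without AVP replicate 1, 2 of the 10 passed in limma. Neither miR-132-3p at 296.6 and 575.7 CPM against 707.4 and 965.4 CPM nor miR-212-5p at 15448.8 and 22582.7 CPM against 13138.2 and 13637.7 CPM passed (limma adjusted p = 0.21 for each). Of 20 tested miRNAs that have been linked to the clock, 2 rose (miR-30a-5p and miR-191-5p) and 4 fell (miR-181a-5p, miR-181d-5p, miR-29b-3p and miR-194-5p), beside 6.32% and 18.6% of all miRNAs. Of these 4, miR-29b-3p and miR-194-5p were tested only through the CCK libraries.

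miR-204-5p, known from choroid plexus, retinal pigment epithelium and some neurons, showed the largest fall among miRNAs read in every library. It was at 76.4 and 81.6 CPM in AVP and 1255.0 and 1647.4 CPM in CCK libraries, 18.4-fold lower (log2 fold change -4.15 ± 0.32 SE, limma adjusted p = 0.023; edgeR adjusted p = 0.013). Its position is chr19:22750610-22750631 (plus strand) in an intron of Trpm3. It made up most of the choroid plexus and ciliated-cell sum given above. Of the other markers in that list, miR-34c-5p was at 7.4 and 208.4 CPM in AVP and 193.8 and 254.7 CPM in CCK libraries, with overlapping groups. miR-34b-3p was at 0 in both AVP libraries and at 51.1 and 12.3 CPM in CCK libraries and did not pass.

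Both tested miRNAs from the introns of Htr2c, the serotonin 2C receptor gene on chromosome X, were absent from the AVP libraries at this depth. miR-1264-3p (chrX:147010655-147010676, plus strand) was at 0 in both AVP libraries and at 140.6 and 154.0 CPM in CCK libraries, at least 71.0-fold lower. miR-1298-3p (chrX:147064970-147064991, plus strand) was at 0 in both and at 61.7 and 117.0 CPM in CCK libraries, at least 43.1-fold lower. Both entered the comparison only through their level in CCK neurons. The 5 members of this list found in the files summed to 0 CPM in both AVP libraries.

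**Figure D4:**
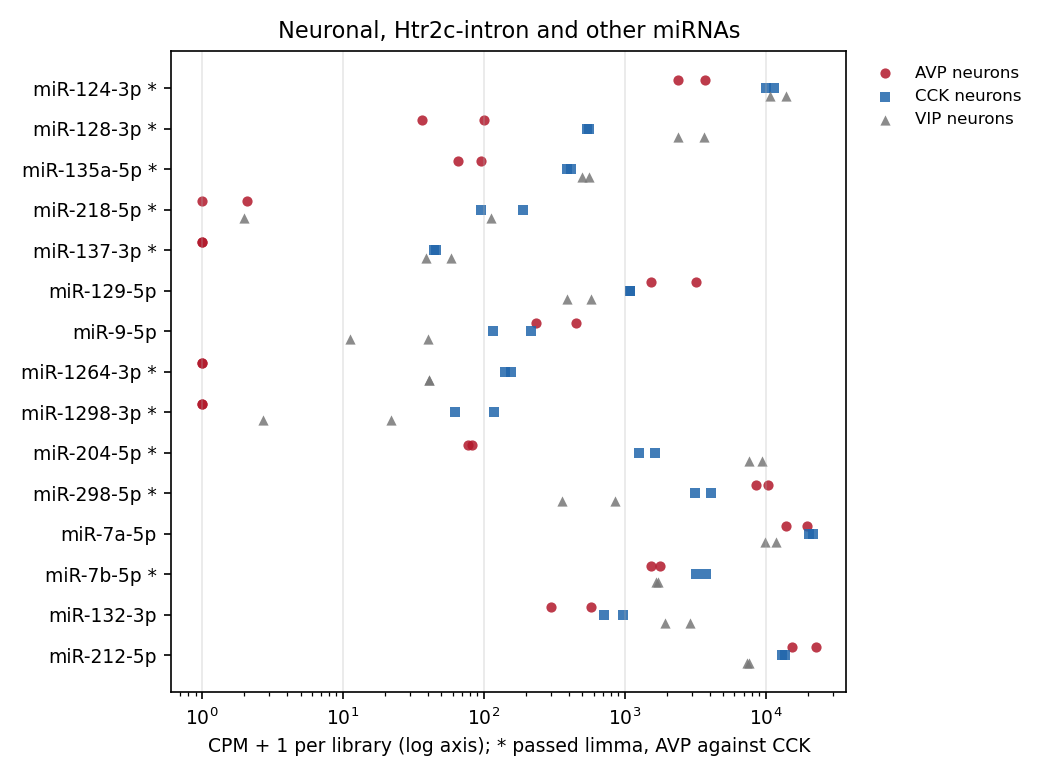
Level of 15 miRNAs in every library, in CPM + 1 on a log axis, with AVP (red circles), CCK (blue squares) and, for reference, VIP libraries (grey triangles); a star marks miRNAs that passed limma between AVP and CCK neurons. miR-1264-3p, miR-1298-3p and miR-137-3p sit at 0 CPM in both AVP libraries, and miR-298-5p is the only starred miRNA here that lies higher in AVP than in CCK libraries.

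miR-298-5p, next to the imprinted Gnas locus (chr2:174267553-174267575, minus strand), was at 10458.4 and 8540.9 CPM in AVP and 4080.3 and 3132.6 CPM in CCK libraries. It was 2.63-fold higher in AVP neurons (log2 fold change 1.40 ± 0.20 SE, limma adjusted p = 0.023; edgeR adjusted p = 0.035). Its limma call was lost without any 1 of the 4 libraries (adjusted p = 0.056 to 0.19). Its neighbours miR-296-3p (0.69 ± 0.48 SE) and miR-296-5p (1.36 ± 0.78 SE) lay higher in both AVP than in both CCK libraries without passing (limma adjusted p = 0.37 and 0.29). miR-7a-5p, a miRNA of endocrine and hypothalamic cells, was at 13982.5 and 19494.2 CPM in AVP and 21616.5 and 20202.9 CPM in CCK libraries and did not pass (limma adjusted p = 0.28). miR-7b-5p, which differs from it by A10U counted from the 5′ end of miR-7a-5p, was at 1542.8 and 1767.0 CPM against 3183.3 and 3789.9 CPM, 2.11-fold lower (-1.07 ± 0.17 SE, limma adjusted p = 0.024; edgeR adjusted p = 0.060), a call lost without any 1 library (adjusted p = 0.056 to 0.19).

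The imprinted Dlk1-Dio3 region on chromosome 12, whose miRNAs are made from the maternal copy, showed calls in both directions. Of 58 tested miRNAs of known position over 180.0 kb, 7 rose and 6 fell, where 6.32% and 18.6% of all miRNAs did. Of the 6, miR-1188-5p, miR-329-3p and miR-376a-3p were at 0 in both AVP libraries and tested only through the CCK libraries. miR-1188-5p, in an intron of Rian, was at 80.9 and 26.7 CPM in CCK libraries. In the miR-379 to miR-410 cluster of this region, counted with members that lack a position, 38 were tested. Of these 5 rose and 5 fell, beside 6.32% and 18.6% of all miRNAs. Among the 5 falls miR-329-3p, miR-376a-3p and miR-376c-3p were tested only through the CCK libraries. The median log2 fold change of the cluster was 0.21 against -0.23 over all miRNAs. In the Rtl1-antisense and Meg3 side, 20 were tested, 2 rose and 1 fell, with a median of 0.12.

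miR-127-3p (chr12:109592888-109592909, plus strand), antisense to an exon of the retrotransposon-derived gene Rtl1, was at 235822.5 and 244384.0 CPM in AVP and 151880.2 and 148844.2 CPM in CCK libraries. It was 1.60-fold higher in AVP neurons, where it and miR-125a-5p were the most abundant of all miRNAs (log2 fold change 0.68 ± 0.06 SE, limma adjusted p = 0.023; edgeR adjusted p = 0.045). miR-434-3p, from the same antisense transcript, was at 18995.3 and 17379.6 CPM in AVP and 15914.6 and 16647.1 CPM in CCK libraries and did not pass (0.16 ± 0.09 SE, limma adjusted p = 0.29). miR-370-3p, in an intron of Rian, rose 1.61-fold (limma adjusted p = 0.043), whereas miR-770-5p, in an exon of Meg3, fell 3.26-fold (limma adjusted p = 0.023), from 2339.5 and 2465.0 CPM in CCK to 638.0 and 836.1 CPM in AVP libraries.

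Among the miR-379 to miR-410 members, miR-409, miR-410, miR-411 and miR-666 gave the 5 rises. miR-409-5p was at 14687.7 and 17273.7 CPM in AVP and 10242.5 and 10316.1 CPM in CCK libraries, 1.55-fold higher (limma adjusted p = 0.035). miR-409-3p, the other arm of that hairpin (chr12:109743204-109743225, plus strand, in an intron of Mirg), was at 3192.0 and 4159.6 CPM against 1593.8 and 1072.2 CPM, 2.76-fold higher (limma adjusted p = 0.036). miR-410-3p rose 2.32-fold, miR-411-5p 2.99-fold and miR-666-5p 2.01-fold (limma adjusted p = 0.036, 0.036 and 0.035). For miR-409-3p, miR-410-3p, miR-411-5p and miR-666-5p the call was lost without any 1 of the 4 libraries and under edgeR (adjusted p = 0.061, 0.074, 0.068 and 0.061).

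The 5 falls of the cluster were miR-329-3p, miR-495-3p, miR-381-3p, miR-376c-3p and miR-376a-3p. miR-329-3p (chr12:109713541-109713562, plus strand), an activity-linked regulator of dendrite growth, was at 0 in both AVP libraries and at 208.8 and 178.7 CPM in CCK libraries, at least 93.4-fold lower. miR-495-3p was at 78.3 and 110.3 CPM in AVP and 409.1 and 449.8 CPM in CCK libraries, 4.55-fold lower (limma adjusted p = 0.036). miR-381-3p was at 2869.2 and 2838.1 CPM against 5081.8 and 4724.6 CPM, 1.72-fold lower (limma adjusted p = 0.023). miR-376c-3p and miR-376a-3p were at 0 in both AVP libraries and at 10.6 to 36.2 CPM in CCK libraries. Like miR-329-3p, they were tested only through the CCK libraries.

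**Figure D5:**
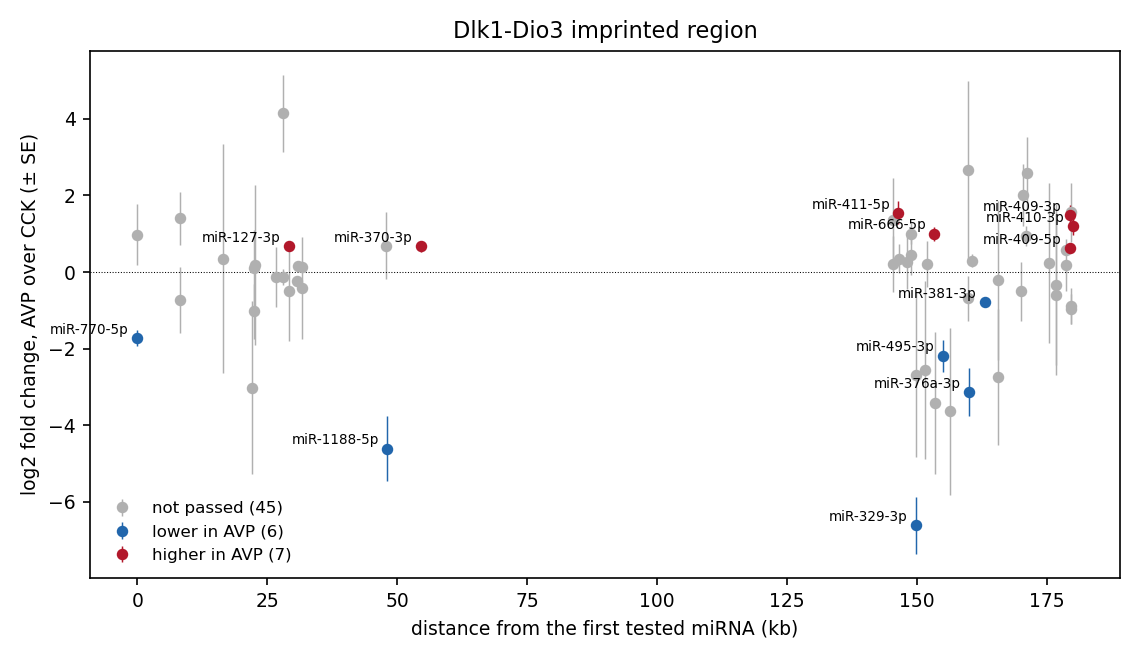
Log2 fold change (AVP over CCK, ± SE) of the 58 tested miRNAs of the Dlk1-Dio3 region by distance from the first of them, in kb; red passed as higher in AVP, blue as lower, grey did not pass. The 7 higher and 6 lower miRNAs are interspersed, and miR-329-3p, at 0 in both AVP libraries, lies lowest.

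Among 25 groups of hairpins less than 10 kb apart on 1 strand with at least 2 tested, 4 held calls in both directions: the miR-99b, let-7e and miR-125a group and 3 stretches of the Dlk1-Dio3 region. In 1 of these stretches the only fall was miR-1188-5p, tested only through the CCK libraries. Another 3 groups, all with let-7 members, held 2 or more calls in 1 direction, 10 held 1 call and 8 held none. The groups are not separate, because let-7f-5p, let-7c-5p, miR-181a-5p and miR-29b-3p each have 2 hairpins and were counted at both. The arms of a hairpin gave a second comparison that needs no scaling. For 50 hairpins with both arms tested, the ratio of the 5p to the 3p arm passed for 0 (limma, 5 at an unadjusted p under 0.05), and 33 hairpins had the same leading arm in all 4 libraries. The smallest p belonged to miR-25 and miR-1981, not given because miR-25-5p and miR-1981-3p were tested only through the CCK libraries. miR-25-5p was at 0 in both AVP libraries and at 51.1 and 43.1 CPM in CCK libraries. Its other arm, miR-25-3p, was at 199.6 and 318.7 CPM in AVP against 53.2 and 18.4 CPM in CCK libraries. miR-1981-3p was at 0 against 40.4 and 61.6 CPM, beside miR-1981-5p at 61.5 and 35.2 against 25.5 and 34.9 CPM.

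Further falls included miRNAs best known from other tissues. miR-143-3p, abundant in smooth muscle and 1 of the vessel markers, had 3 reads in the AVP libraries and 124 in the CCK libraries, a ratio of 62.4 (95% exact counting interval 20.9 to 307). miR-199a-5p, a miRNA of mesenchymal cells, was at 0 in both AVP libraries and at 21.3 and 57.5 CPM in CCK libraries, at least 19.0-fold lower. miR-194-5p, known from liver and gut, was at 0 against 68.1 and 115.0 CPM, at least 44.1-fold lower. miR-29b-3p was at 0 against 100.1 and 47.2 CPM, at least 35.5-fold lower, while its relative miR-29a-3p was at 1481.2 and 1751.6 CPM against 2184.0 and 2204.1 CPM and did not pass (limma adjusted p = 0.14). The oligodendrocyte markers miR-338-3p and miR-338-5p, both from an intron of Aatk, were lower in both AVP than in both CCK libraries without passing (limma adjusted p = 0.12 and 0.11).

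miR-335-5p, from an intron of the imprinted gene Mest, was at 729.4 and 740.1 CPM in AVP and 1947.5 and 2282.1 CPM in CCK libraries, 2.88-fold lower (limma adjusted p = 0.023; edgeR adjusted p = 0.035). miR-342-3p, from an intron of Evl, fell 2.36-fold (limma adjusted p = 0.049, and 0.073 to 0.32 without any 1 library) and miR-361-5p, from an intron of Chm, 2.81-fold (limma adjusted p = 0.036). miR-3059-5p, from an intron of Mgat4c, was at 0 against 108.6 and 117.0 CPM and miR-672-5p, from an intron of Nexmif, at 0 against 98.0 and 110.9 CPM, at least 54.4-fold and 50.3-fold lower. Of the remaining rises, miR-191-5p was 1.41-fold higher (limma adjusted p = 0.042), at 29881.0 and 34449.3 CPM in AVP and 22852.3 and 22846.6 CPM in CCK libraries. miR-486-5p rose 2.14-fold (limma adjusted p = 0.023), and miR-3107-5p, listed within 1.1% of it in every library, rose 2.13-fold, so the 2 entries may share reads and are uncertain. miR-486-5p is also a red-cell miRNA, and the other red-cell markers were at 0 in all 4 libraries.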

How the data were processed

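Small RNA of 2 AVP and 2 CCK neuron libraries was sequenced and counted per mature miRNA. Libraries were grouped by their titles; VIP libraries are shown for reference. The deposited values are a signal per miRNA, whole numbers scaled by the authors to about 10000000 per library, as the deposited values themselves show. Bowtie and the mouse build GRCm38 (mm10) are named without a role, per the submitters' processing notes. How multiply mapping reads were assigned is not given in the sources used here; it can split counts between members of a family that differ by 1 base, such as let-7. CPM is the deposited value divided by 10, an unlisted miRNA is 0, and 0 columns were left without a group. Values came in steps of 1 read, rounded down, so reads were recovered; intervals and the floor of 3 reads cover counting error only.

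limma-trend (limma 3.58.1, R 4.3.3) was run on log2(value + 20) over the 4 libraries, two-sided, with Benjamini-Hochberg adjustment over 269 miRNAs and a threshold of 0.05; 20 is close to 1 read in the shallowest library. Log2 fold changes are on that scale, and folds are ratios of mean CPM. Sums over miRNAs with a matched sequence that share a seed, and log2 ratios of hairpin arms, were fitted with limma too. edgeR 4.0.16 and DESeq2 1.42.0 on recovered reads, other pseudocounts (1 and 100), other scalings, VIP libraries in the fit, a replicate block, other filters and leaving out each library were alternatives. An earlier analysis of these data used a pseudocount of 1 and all 3 neuron types in 1 model; both are among them. limma and edgeR were also run on simulated reads with the same spread in both types. That spread was not taken from these libraries, so the run does not bear on the calls. Replicates of a type differed by more than sampling noise (chi-square per degree of freedom 70.1 and 13.1).

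The comparison, the miRNA lists and the tests were chosen with earlier results of these data known. miRNAs named in the text were drawn from the 12 largest rises and falls with a mean of at least 50 CPM in the higher group, the 10 most abundant miRNAs, up to 4 members of each of 23 lists with the smallest p, members of called seed families, and seed mates and other arms of these. miR-9-5p, miR-128-3p, miR-335-5p, miR-361-5p, miR-376a-3p and miR-495-3p were chosen after their values were seen. Counts of members called in the lists not described in the report stand beside 6.32% higher and 18.6% lower of all miRNAs. They were 1 lower of 3 tested for miR-29, endocrine, astrocyte, leukocyte, and choroid plexus lists, 2 lower of 5 for miR-181 and 2 lower of 4 for vascular miRNAs. Among these falls miR-29b-3p, miR-199a-5p and miR-143-3p (in both the astrocyte and vascular lists) were tested only through the CCK libraries. Counts were 1 higher of 4 for the miR-17 to miR-92a clusters, 1 higher of 3 for Gnas-region miRNAs and 1 higher of 1 for erythrocyte miRNAs. No member was called in the others: 0 of 6 for the miR-23, miR-27 and miR-24 clusters, 0 of 4 for miR-344, 0 of 3 for oligodendrocyte miRNAs and 0 of 1 for the sensory cluster.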

Additional observations from a re-analysis of the deposited data

How the results depend on the processing

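The 67 calls (17 higher, 50 lower in AVP neurons) became 41 under quantile normalization (19 higher, 22 lower), 17 with edgeR (5 and 12) and 18 with no filter on low values (6 and 12, over 395 miRNAs tested). With VIP libraries in the fit 9 were higher and 51 lower, with a minimum value of 1000 they were 19 and 33, and with miRNAs above 0 in all 4 libraries, a setting chosen after seeing the data, 20 and 30. A pseudocount of 1 or 100, median-ratio scaling and DESeq2 gave 62, 63, 68 and 70 calls. The cause of these differences was not tested. Leaving out 1 library gave 25 to 57 calls, 0 to 12 higher and 17 to 45 lower, and 1 to 13 seed families in place of 7. Arm ratios, 0 at first, passed for 5 hairpins with a pseudocount of 1 and for 1 with VIP libraries in the fit.

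Deviations of the same-numbered AVP and CCK libraries from their group means correlated at -0.0823 across the tested miRNAs. With 2 libraries of each type, this value cannot show whether same-numbered libraries were collected together. With the replicate block 56 miRNAs passed (14 higher, 42 lower), 53 of them among the 67, beside 5 seed families and 0 arm ratios.

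Among the miRNAs named in the text, 3 turned direction under an alternative. Under quantile normalization these were miR-125a-5p (-0.09 on the log2 scale) and miR-377-5p (0.55). Leaving out 1 library gave -1.26 to 0.16 for let-7g-5p and -2.83 to 1.65 for miR-377-5p. Median-ratio and quantile scaling put the median of all miRNAs at -0.16 and 0.28, from -0.23. With 1 read worth about 1.1 to 2.1 CPM, miRNAs under about 10 CPM were not resolved.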

Other observations

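A small group of miRNAs was read in both AVP libraries and in neither CCK library, and these 3 were chosen after their values were seen. miR-344f-3p was at 69.0 and 13.2 CPM in AVP libraries, at least 13.1-fold higher than in CCK neurons. miR-433-5p, the minor arm of a hairpin antisense to Rtl1, was at 74.6 and 14.3 CPM, at least 14.2-fold higher. miR-28a-3p was at 98.8 and 12.1 CPM, at least 17.7-fold higher. All 3 entered the comparison only through their level in AVP neurons. None of the 3 passed limma, and in each AVP replicate 1 was the higher library.

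Of the dendritic miRNAs of the Dlk1-Dio3 region, miR-134-5p was at 104.4 and 258.1 CPM in AVP and 29.8 and 51.3 CPM in CCK libraries. miR-485-3p, chosen after its values were seen, was at 124.9 and 474.3 CPM against 53.2 and 28.7 CPM. Both lay higher in both AVP libraries without passing (limma adjusted p = 0.18 and 0.15). The other arm of the miR-485 hairpin, miR-485-5p, had a log2 fold change of 0.01 and did not pass. miR-329-3p, linked above to dendrite growth, went the other way, at 0 in both AVP libraries.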
